A study of Homo sapiens with 16 samples.

Results

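The S100 proteins and annexins described here are 10 genes, S100A4, S100A6, S100A10, S100A11, S100A13, ANXA1, ANXA2, ANXA4, ANXA5 and ANXA6. They were chosen by name, after a first look at the same data in which S100A6 and ANXA5 leaned to higher translational efficiency in HNRNPC-depleted cells. All 10 were found once in each table, among 10799 transcripts in the table that compares MDA-LM2 with parental cells, 8980 in the table of the knockdown and 10823 in all.

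S100 proteins are small proteins with paired EF-hands. Most of them bind calcium, change shape when calcium enters the cell and then dock onto partner proteins. Annexins bind phospholipid membranes in the presence of calcium, and pairs of the families act together, since S100A10 joins ANXA2 and S100A11 joins ANXA1 in complexes at the plasma membrane. These complexes organise membrane repair, vesicle traffic and the cell surface activation of plasminogen, and S100A4 is widely studied as a promoter of metastatic behaviour in breast cancer models.

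The study asked how translation differs between poorly and highly metastatic cells. Ribosome-protected mRNA footprints (RPFs, the fragments that a translating ribosome shields from nuclease) and total RNA were sequenced from the same lysates of 4 human breast cancer lines, in duplicate, which gave 16 samples. The parental MDA-MB-231 line, classed as negative for hormone receptors and HER2, metastasises poorly. MDA-LM2 was derived from it and metastasises strongly to the lungs. The sgControl and sgHNRNPC lines are MDA-MB-231 cells under CRISPR interference, which silences a gene at its promoter, with a control guide or a guide against HNRNPC, a nuclear protein that binds U-rich stretches of RNA. All lines were grown in the same medium, and MDA-LM2 is a single selected derivative, so that what is particular to this derivative and what goes with metastatic capacity cannot be told apart. Translational efficiency (TE) is the RPF value over the RNA value of a gene, and on the log2 scale its change equals that of RPF less that of RNA.

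In sgHNRNPC cells the HNRNPC transcript had normalised RNA counts of 1147 and 1183, against 2162 and 2146 in sgControl cells, a log2 change of -0.89 ± 0.05 (SE, limma adjusted p = 5.14e-28). Its RPF values were 54.4 and 67.0 in sgHNRNPC cells against 73.4 and 110.9 in sgControl cells. This RPF change of -0.57 ± 0.19 did not pass (limma adjusted p = 0.467). VIM, CD44, KRT18, KRT8 and EGFR, which this line is known to express, were listed in every library, and ESR1, PGR, CDH1, PTPRC, PECAM1 and ALB were listed in neither table. ERBB2 lay between 127 and 812 normalised RNA counts and EPCAM between 31.9 and 86.9. KRT8 was lower in MDA-LM2 (5340 and 4892) than in parental cells (10726 and 10292), and its part in the results below was not tested. Normalised totals per library were 7023013 to 8326052 (RNA) and 650736 to 679726 (RPF) for MDA-LM2 and parental cells, and 5415889 to 5559039 and 158011 to 167928 for the knockdown pair, so footprints were sparser in the latter. A single transcript took 3.47% to 5.83% of the RNA total in the first table and 18.1% to 21.1% in the second.

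All 5 S100 members lie on the minus strand of chromosome 1 in hg38 (GENCODE version 44). S100A10 is at chr1:151982918-151992578, S100A11 at chr1:152032506-152037004, S100A6 at chr1:153534599-153536244, S100A4 at chr1:153543613-153545802 and S100A13 at chr1:153618799-153628180. The annexins are scattered, with ANXA1 at chr9:73151865-73170393, ANXA2 at chr15:60347332-60397985, ANXA4 at chr2:69742134-69827112, ANXA5 at chr4:121667946-121696980 and ANXA6 at chr5:151100706-151157779. The S100 messages are short, with coding sequences of 273 to 318 bases in mRNAs of 514 to 673 bases, whereas the annexin coding sequences span 963 to 2022 bases. S100A6 and S100A11 each overlap a lncRNA gene on the opposite strand. S100A6 has the longest 5′ UTR of the members, 303 bases with 2 upstream AUG triplets. S100A4 and S100A13 hold 1 upstream AUG each and the other 7 members none. At least 1 upstream AUG was found in 41.0% of the 10498 listed transcripts with a 5′ UTR of at least 3 bases.

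The sequences around the start codon are shown for the pair of genes named in the choice of members and for S100A13, which lacked the purine described after them. Each runs 5′ to 3′ from 12 bases before the AUG, which is in capitals, to 4 bases after it.
S100A6: cagcccucagccAUGgcau
ANXA5: ugaguagucgccAUGgcac
S100A13: cucaggguccuaAUGgcag
S100A6 and ANXA5 share the letters GCC right before the start codon and GCA right after it. GCA also follows the start codon in S100A11, S100A13 and ANXA1, and no share over all listed transcripts is given for these letters. A purine at the third base before the AUG and a G right after it, the pattern favoured by initiating ribosomes, were both present in 8 of 10 members, against 46.7% of all listed transcripts with a 5′ UTR of at least 3 bases. S100A13 lacked the purine.

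Matches to a C followed by 6 U, a form of the U-rich stretch that HNRNPC binds, were searched in the sense strand of the 3′ UTRs because HNRNPC was the protein depleted. Such a match was found in 5 of 10 members and in 43.0% of 10537 listed 3′ UTRs of at least 7 bases. The 3′ UTRs of the members were short, with a median of 266 bases against 1167 over all. Among the 7 members with 3′ UTRs of 96 to 300 bases, 3 held the match, against 6.95% of 1353 listed 3′ UTRs in this length range. The range fits the members, as 96 bases is the length in S100A13 and ANXA2 has 298. No enrichment is read from it. The matches are printed 5′ to 3′ with up to 10 bases on either side and the match in capitals. All lie in the last exon.
S100A4, chr1:153543681-153543707, minus strand: ccagugggcaCUUUUUUuuuuccaccc
S100A10, chr1:151982918-151982940, minus strand: aaauaaaguuCUUUUUUaguucc
S100A11, chr1:152032506-152032532, minus strand: agcaaugucaCUUUUUUaaaacaugaa
ANXA5, chr4:121668162-121668188, minus strand: ugcuuuuagcCUUUUUUaaaaacucca
ANXA4, chr2:69825875-69825901, plus strand: ucuaaaaucaCUUUUUUcccuaaucca
ANXA4, chr2:69826007-69826033, plus strand: cuacaaaucuCUUUUUUuagguuuugu
ANXA4, chr2:69826321-69826347, plus strand: auaaagaaaaCUUUUUUgugcuaaaaa
In S100A10 the match follows closely after AAUAAA, the letters of the canonical polyadenylation signal, and ends near the 3′ end of the listed mRNA. The run of U in S100A4 goes on past the match. S100A6, S100A13, ANXA1, ANXA2 and ANXA6 held no match. Runs of U without a C before them were not counted. A match is a stretch of letters and was not measured as a binding site.

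Levels were compared between members per length, as normalised RNA per kb of mRNA and as relative TE, the RPF per kb of coding sequence over the RNA per kb, divided by the median gene of the library. S100A6, a calcium sensor that regulates the cytoskeleton and proliferation, was the most abundant member in every line, at 43963 ± 2075 normalised RNA per kb in parental cells (SD, n = 2) which is percentile 99.98 of the listed genes. ANXA2, which scaffolds plasminogen activation at the cell surface, came second at 6843 ± 413. S100A11, ANXA1, S100A4, ANXA5 and ANXA6 followed in that order between 2393 and 1042 per kb, without overlap between neighbours. S100A13 (650 ± 109), which takes part in the unconventional secretion of growth factors, and S100A10 (565 ± 26.5), the partner of ANXA2, overlapped. ANXA4 was far below the others at 67.8 ± 1.00 at percentile 47.1.

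Relative TE has the RNA level as its denominator, and in parental cells the most abundant pair, S100A6 and ANXA2, had the lowest values and the least abundant pair, S100A10 and ANXA4, the highest. S100A6 had the lowest relative TE of the members in all 4 lines, 0.206 ± 0.005 of the median gene in parental cells, and its replicates overlapped those of no other member in any line. ANXA2 was next at 0.568 ± 0.058, although its footprints per kb of coding sequence lay at percentile 99.7. S100A10 had 4.39 ± 0.04 and ANXA4 2.73 ± 0.22. Neighbouring members did not overlap in parental cells, while in MDA-LM2 cells ANXA4 overlapped S100A4, ANXA5 overlapped S100A13 and S100A11 overlapped ANXA1. Reads from the processed pseudogenes of ANXA2 (3 in the annotation) and S100A11 (8) cannot be separated from those of their parent genes in these tables, which list none of them.

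The same members stood differently in the second table, in which libraries were normalised separately. S100A10 had a relative TE of 4.39 ± 0.04 in parental cells and 0.565 ± 0.089 in sgControl cells. Its RNA per kb lay at percentile 89.8 in the former and 99.3 in the latter. ANXA5 went from 1.82 ± 0.04 to 0.657 ± 0.018, and ANXA6, a membrane scaffold of endosomes and caveolae, from 0.783 ± 0.019 to 1.78 ± 0.01. Parental and sgControl cells are both MDA-MB-231, and differences between their tables were not tested, since line and experiment cannot be told apart.

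**Figure D1:**
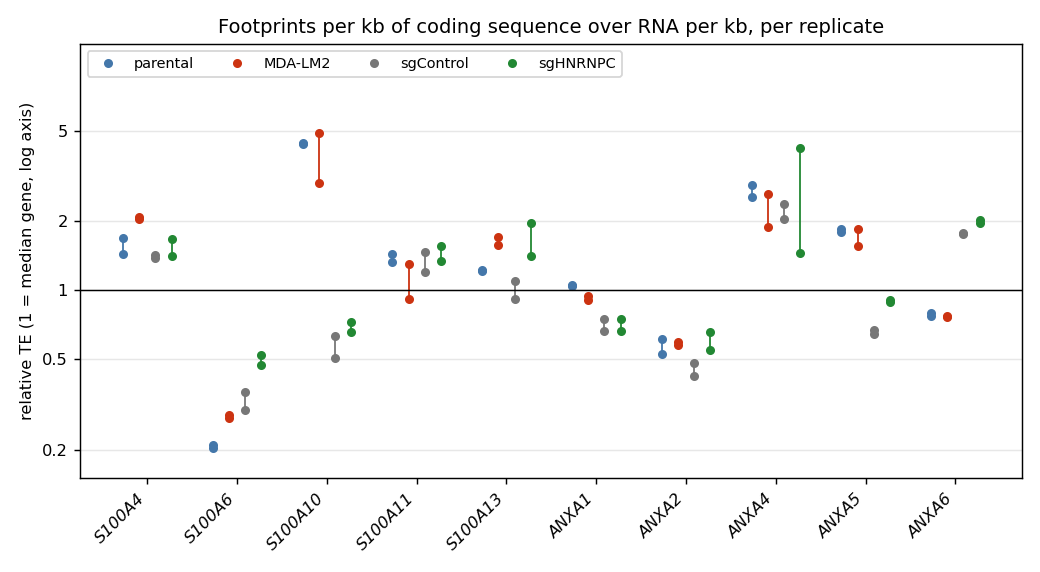
Relative TE of each member (vertical axis, log scale, 1 is the median gene of the library) in parental, MDA-LM2, sgControl and sgHNRNPC cells, with a point per replicate joined by a line. S100A6 is the lowest member in all 4 lines, and S100A10 lies near 4 in parental and MDA-LM2 cells but under 1 in sgControl and sgHNRNPC cells.

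In MDA-LM2 cells, S100A4 and S100A6 transcripts fell, footprints of S100A4, S100A6 and ANXA5 fell, and footprints of ANXA6 rose. All 10 members averaged at least 10 over the RNA libraries and over the RPF libraries, and were tested among 8393 genes. The limma test called 2 of 10 members in RNA, both lower, where 9.44% of all tested genes were called lower, 5.8% higher and 15.2% in either direction. In RPF it called 3 members lower, against a background of 7.03%, and 1 higher, against 5% (12% in either direction). These counts depended on single libraries. Without MDA-LM2 replicate 1 the RNA calls were 8, where 50.5% of all tested genes were called, and without MDA-LM2 replicate 2 they were 4, where 33.7% were. Without parental replicate 1 or 2 a single member was called in RNA, with 5.86% and 6.98% of all tested genes called. The RPF calls were 2 without MDA-LM2 replicate 2, with 7.64% of all called. The split of RNA calls over all genes depended on scaling, with 487 higher and 792 lower as deposited and 994 higher and 498 lower after scaling libraries to equal totals, which moved the median RNA change of all tested genes from -0.02 to 0.15. The median RNA change of the members was -0.18 against -0.02 for all tested genes, and the median RPF change was -0.17 against -0.01. The members' median RNA change was -0.10 without MDA-LM2 replicate 2, against -0.01 for all tested genes, and -0.0089 under equal totals, against 0.15. Fewer transcripts per cell and fewer cells expressing a transcript cannot be told apart in such bulk libraries.

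S100A4, a binding partner of non-muscle myosin that is linked to cell motility, had normalised RNA counts of 1105 and 1170 in parental cells and 434 and 461 in MDA-LM2 cells. In RPF it had 233 and 210 in parental cells and 115 and 123 in MDA-LM2 cells. Both kinds of library were well separated between the lines. The RNA fell by 1.34 on the log2 scale (SE 0.11, limma adjusted p = 0.000617) and the RPF fell by 0.89 (SE 0.12, adjusted p = 2.44e-06). S100A4 kept both calls in each of the 13 alternative analyses.

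S100A6 RNA was 30574 and 28600 in parental cells and 17558 and 16496 in MDA-LM2 cells. Footprints gave 599 and 542 in parental cells against 457 and 458 in MDA-LM2 cells. The MDA-LM2 libraries were below the parental ones in both, and by a wider margin in RNA. RNA fell by 0.80 (SE 0.14, limma adjusted p = 0.0111) and RPF by 0.32 (SE 0.09, adjusted p = 0.0203). The RNA call was lost without either parental replicate (adjusted p = 0.225 without replicate 1 and 0.132 without replicate 2). The RPF call was lost in 6 of 13 alternatives, among them those without parental replicate 1, MDA-LM2 replicate 1 or MDA-LM2 replicate 2, with an adjusted p of 0.0554 to 0.236.

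ANXA5, which binds phosphatidylserine and assembles into lattices at membrane wounds, had RPF values of 522 and 569 in parental cells and 454 and 424 in MDA-LM2 cells. Its RNA was 2142 and 2273 against 2111 and 1609. The footprints were separated, and the RNA libraries of MDA-LM2 lay apart from each other with 1 of them just under the parental values. RPF fell by 0.31 (SE 0.09, limma adjusted p = 0.0233), while the RNA change of -0.26 ± 0.15 did not pass (adjusted p = 0.275). This RPF call was lost in 5 of 13 alternatives (adjusted p = 0.0635 to 0.26), among them those without parental replicate 2 or without MDA-LM2 replicate 2.

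ANXA6 ran the other way. Footprints of this gene were 374 and 387 in parental cells and 516 and 484 in MDA-LM2 cells, and its RNA was 3005 and 3014 against 4141 and 3743. Both MDA-LM2 libraries exceeded both parental libraries in each measure. RPF rose by 0.39 (SE 0.09, limma adjusted p = 0.00457) and kept the call in 13 of 13 alternatives. The RNA change was of the same size, 0.39 ± 0.11, and just missed the threshold (adjusted p = 0.0629). With libraries scaled to equal totals it was 0.56 and passed (adjusted p = 0.0081), and over the 13 alternatives it passed in 6, with adjusted p from 1.31e-07 to 0.549.

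The other 6 members did not pass in RNA or RPF. ANXA2 RNA was 9459 and 10303 in parental cells and 8371 and 7727 in MDA-LM2 cells, and its RPF values were 987 and 930 against 868 and 797. MDA-LM2 was lower in both, with changes of -0.30 ± 0.13 (adjusted p = 0.158) and -0.20 ± 0.08 (adjusted p = 0.114). S100A10, S100A11 and S100A13 had RNA values that overlapped between the lines, with changes of 0.02, 0.15 and -0.41 and SEs of 0.16 to 0.21. ANXA1, an anti-inflammatory phospholipid-binding protein, was nearly level, at 3156 and 3224 against 3382 and 3357 in RNA. ANXA4 had the fewest footprints, 44.01 and 38.3 in parental cells and 27.9 and 37.8 in MDA-LM2 cells, and a correspondingly wide SE of 0.23 for its RPF change of -0.33.

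**Figure D2:**
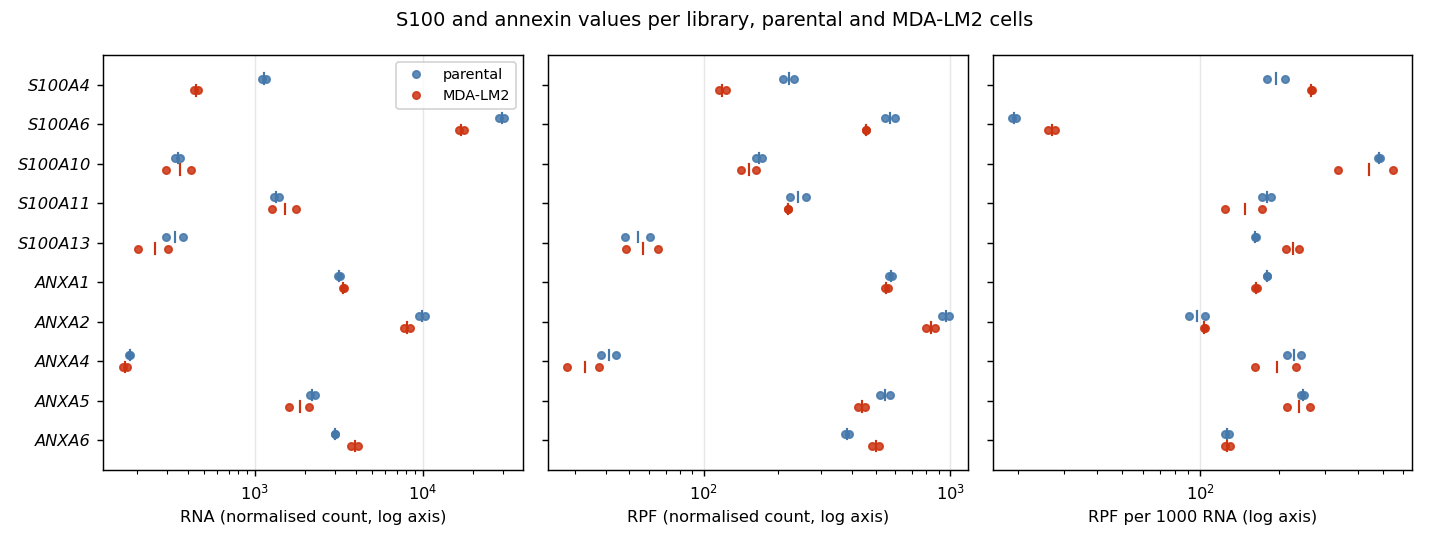
Normalised RNA counts, normalised RPF values and RPF per 1000 RNA (log axes) of the 10 members, with a point per library and a bar at the mean, in parental and MDA-LM2 cells. In both RNA and RPF the S100A4 and S100A6 points of MDA-LM2 lie left of the parental points and those of ANXA6 lie right of them.

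In TE, the limma test called 0 of 10 members, with a background of 0.0357% (3 of 8393 genes). At an unadjusted p under 0.05 it had 2 members, S100A4 and S100A6, and 5.42% of all tested genes. In S100A4 the RPF value per 1000 normalised RNA was 211 and 180 in parental cells and 265 and 267 in MDA-LM2 cells, and in S100A6 it was 19.6 and 18.9 against 26.1 and 27.7. The estimated fall was smaller in RPF than in RNA for both genes, and neither of these differences passed adjustment. The TE changes were 0.45 ± 0.17 for S100A4 (adjusted p = 0.89) and 0.48 ± 0.14 for S100A6 (adjusted p = 0.791). Logistic regression, the kind of test that the study used, was run here on normalised values summed over replicates. Each unit of these values is taken as a read, and replicate spread plays no part. Logistic regression called S100A4 and S100A6 higher (adjusted p = 0.0303 and 1.13e-10), with a background of 1.01% called higher. S100A13 had a change of like size with a wider error, 0.47 ± 0.32. The median TE change of the members was -0.02 against 0.03 for all tested genes. ANXA6 had 124 and 128 RPF per 1000 RNA in parental cells and 125 and 129 in MDA-LM2 cells, with a TE change of 0.01 ± 0.15.

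**Figure D3:**
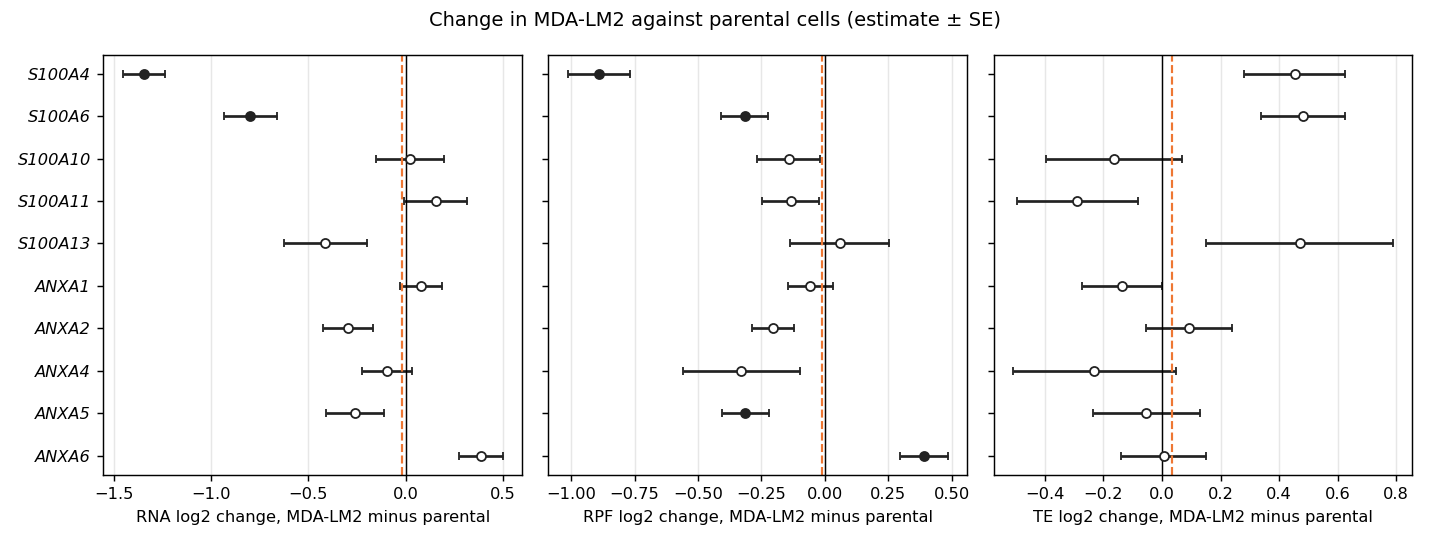
Log2 change in MDA-LM2 against parental cells for RNA, RPF and TE (points, with SE as bars). Filled points passed limma at an adjusted p under 0.05, and the dashed line is the median of all tested genes. S100A4 and S100A6 lie left of 0 in RNA and RPF and right of 0 in TE, where no member is filled.

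Of 23 other S100 genes and annexins, 6 were listed and 5 passed the minimum. In MDA-LM2 cells 1 of these rose in RNA (background 5.8%), 1 rose and 2 fell in RPF (backgrounds 5% and 7.03%), and none was called in TE by limma (background 0.0357%). ANXA7, which promotes membrane fusion, rose in RNA, from 461 and 451 to 614 and 842 (0.66 ± 0.16, adjusted p = 0.0347). S100A2, a keratinocyte and basal cell S100 protein, rose in RPF, from 106 and 85.8 to 134 and 123 (0.43 ± 0.14, adjusted p = 0.0464). S100A16 fell in RPF, from 125 and 120 to 92.1 and 67.3 (-0.63 ± 0.15, adjusted p = 0.00484), and so did ANXA11, which tethers RNA granules to lysosomes, from 212 and 206 to 155 and 163 (-0.40 ± 0.12, adjusted p = 0.0219). ANXA3 passed in none of the measures, with changes of -0.24 in RNA and -0.11 in RPF. S100A3, the neighbour of S100A4, had too few footprints to be tested, and its RNA counts were 136 and 114 in parental cells and 59.2 and 44.3 in MDA-LM2 cells.

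Among 37 genes that encode partners of the members or take part in membrane repair, 27 were tested. In RNA, 2 rose and 7 fell, with backgrounds of 5.8% and 9.44%, and in RPF 2 rose and 8 fell, with backgrounds of 5% and 7.03%. The median changes were -0.20 in RNA and -0.25 in RPF, against -0.02 and -0.01 for all tested genes. MYOF, a ferlin of membrane fusion and repair, fell from 4625 and 4916 RNA counts to 2951 and 3593 (-0.55 ± 0.13, adjusted p = 0.0347) and by a like amount in RPF (-0.45 ± 0.09). Its relative DYSF rose in RNA (0.74 ± 0.14, adjusted p = 0.0159). CAPN1 and CAPNS1, the catalytic and the small subunit of a calcium-activated protease, both fell in RNA (-0.60 and -0.47) and RPF (-0.52 and -0.46), and so did CAV1, the caveolar coat protein (-0.62 and -0.54).

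AHNAK2 fell in both measures (-0.80 in RNA and -0.75 in RPF), whereas AHNAK, the large scaffold that the complex of S100A10 and ANXA2 binds, rose in RPF (0.28 ± 0.09, adjusted p = 0.0243). PLAT, the plasminogen activator that ANXA2 and S100A10 recruit, fell in RNA (-0.82 ± 0.11) and RPF (-0.70 ± 0.12). MYH9, the myosin heavy chain bound by S100A4, fell in RPF (-0.27 ± 0.08, adjusted p = 0.0254) and CHMP4B, an ESCRT-III subunit, fell in RPF (-0.55 ± 0.16). IQGAP1, a cytoskeletal scaffold, rose in RNA (0.93 ± 0.18) and RPF (0.58 ± 0.13). CACYBP, the S100A6-binding protein, did not pass (0.32 ± 0.12 in RNA, adjusted p = 0.108). No gene of this list was called in TE by limma, and DYSF and IQGAP1 had TE changes of -0.42 and -0.35 with unadjusted p of 0.168 and 0.252.

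In sgHNRNPC cells, the estimated TE difference was above 0 for all 10 members, against 57.7% of all genes, and highest in S100A13, S100A6, ANXA5 and ANXA2. It turned negative in at least 1 alternative for ANXA1 (down to -0.10), S100A11 (to -0.013) and ANXA4 (to -0.56). The members were chosen with this comparison in view, so its values are a description without a test. All members were among the 4283 genes that averaged at least 10 in RNA and in RPF. ANXA4 averaged 8.995 in RPF over the sgControl libraries and 12.85 over the sgHNRNPC libraries. It therefore passed the minimum only through the sgHNRNPC libraries, and it is included in the count and medians given here. The median TE difference of the members was 0.24 against 0.06 for all these genes, with medians of 0.30 for the S100 members and 0.18 for the annexins. The median RNA difference was -0.16 against -0.04, and the median RPF difference was 0.29 against 0.02. Without sgHNRNPC replicate 1 the median RPF difference was 0.16 against 0.07 for all genes.

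S100A6 RNA was 11276 and 11828 in sgControl cells and 9980 and 10312 in sgHNRNPC cells, and its RPF values were 154 and 135 against 200.1 and 186. Its RPF per 1000 RNA was 13.6 and 11.4 in sgControl lysates and 20.1 and 18.1 in sgHNRNPC lysates. The knockdown was therefore lower in RNA and higher in footprints, and the lysate ratios did not overlap. The TE difference was 0.61 ± 0.13 (SE), made up of an RNA difference of -0.19 ± 0.04 and an RPF difference of 0.42 ± 0.15. The TE model pools the spread of RNA and RPF libraries, so its SE can fall below that of RPF alone, as here.

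ANXA5 showed the same order, with RNA of 3802 and 3870 in sgControl cells against 3255 and 3353 in sgHNRNPC cells and RPF values of 136 and 145 against 162 and 169. Its lysate ratios were 35.7 and 37.4 in sgControl cells and 49.8 and 50.3 in sgHNRNPC cells, close together within a line and apart between lines. The TE difference was 0.45 ± 0.11, with -0.22 ± 0.04 in RNA and 0.24 ± 0.15 in RPF, so the pooled SE is again below that of RPF.

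ANXA2 footprints were 188 and 214 in sgControl cells and 238 and 287 in sgHNRNPC cells, on RNA of 6369 and 6328 against 6135 and 6175. Its TE difference of 0.42 ± 0.15 came almost entirely from RPF. S100A13 had the largest estimate, 0.71 ± 0.30, from RPF values of only 17.3 and 14.9 in sgControl cells and 17.7 and 26.2 in sgHNRNPC cells. Its transcript overlaps S100A1 on the opposite strand and a lncRNA on its own, and strand use in counting is not given in the sources used here. S100A10, whose partner is ANXA2, had lysate ratios of 28.2 and 22.7 against 32.8 and 29.6 and a TE difference of 0.30 ± 0.18. Over the alternatives this difference ran from 0.14 to 0.45, and its RPF difference from 0.0053 to 0.32, both lowest without sgControl replicate 2.

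ANXA6 was lower in both measures, with RNA of 993 and 1010 in sgControl cells against 746 and 756 in sgHNRNPC cells, and RPF values of 116 and 120 against 102 and 98.6. Its RNA difference of -0.41 ± 0.06 was the most negative among the members. S100A4 RNA was also lower, 703 and 751 against 570 and 616, with overlapping lysate ratios. S100A11 RNA was higher in sgHNRNPC cells, 898 and 953 against 788 and 809, with an RNA difference of 0.21 ± 0.06 and an RPF difference of 0.34 ± 0.19. ANXA1 was flat in TE (0.01 ± 0.13, with an RPF difference of -0.12 ± 0.16). ANXA4 rested on RPF values of 8.11 and 9.88 in sgControl cells and 18.5 and 7.20 in sgHNRNPC cells, and its TE difference turned negative without sgHNRNPC replicate 1 (-0.56) and grew without replicate 2 (0.86).

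Both sgHNRNPC lysates were above both sgControl lysates in TE in 6 of 10 members, where 22.6% of the 4283 genes had this order, and below them in 0 members, where 14% did. In RNA both sgHNRNPC libraries were below both sgControl libraries in 8 members, with a background of 34.6%, and above in 2, with a background of 20.2%. In RPF they were above in 5 members (background 20.8%) and below in 2 (background 17.1%). These orders belong to the comparison that chose the members, and nothing is read from them.

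**Figure D4:**
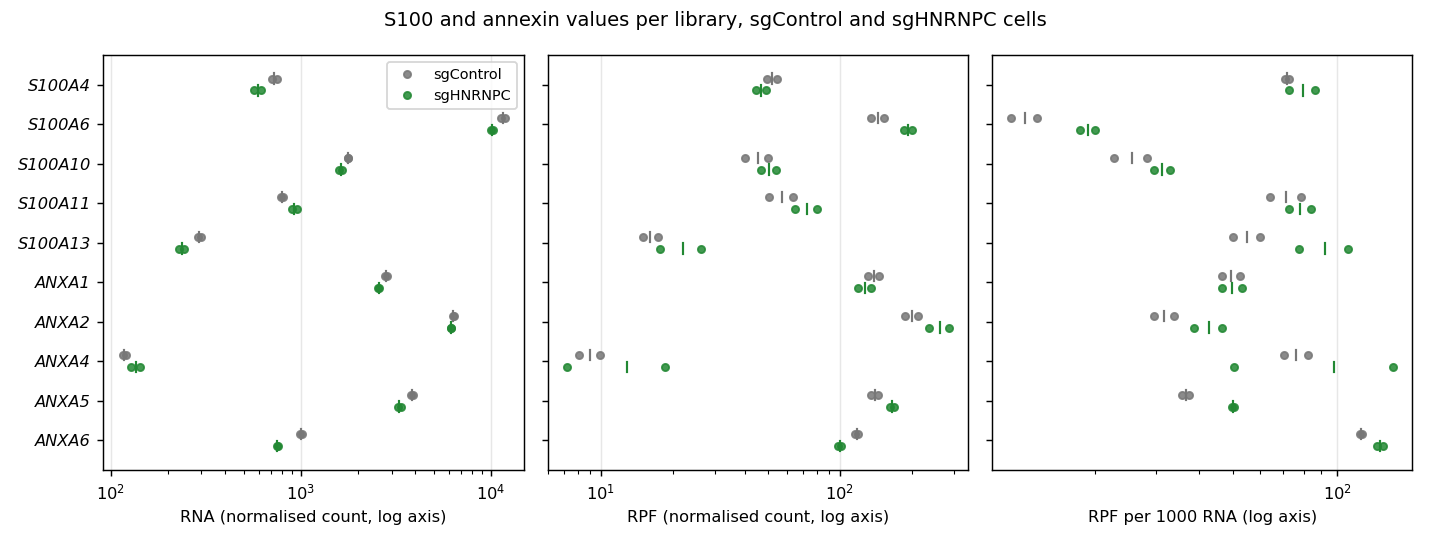
Normalised RNA counts, normalised RPF values and RPF per 1000 RNA (log axes) of the 10 members in sgControl and sgHNRNPC cells, with a point per library and a bar at the mean. The S100A6 and ANXA5 points of sgHNRNPC lie left of the sgControl points in RNA and right of them in RPF and in the ratio.

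**Figure D5:**
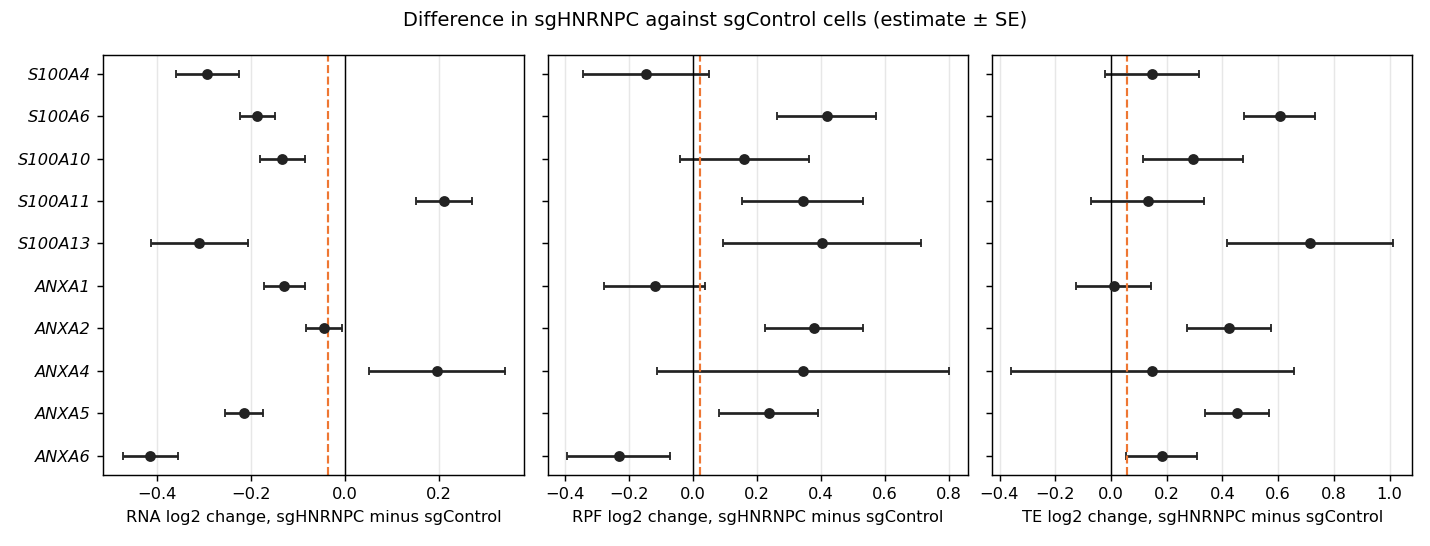
Log2 difference of sgHNRNPC against sgControl cells for RNA, RPF and TE of the 10 members (points, with SE as bars, no test), and the median of all 4283 genes as a dashed line. The TE points all lie right of 0, from 0.01 in ANXA1 to 0.71 in S100A13, and those of S100A6, S100A13, ANXA2 and ANXA5 lie farthest from the dashed line.

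The 5 other S100 genes and annexins that passed the minimum had TE differences of both signs in the knockdown. S100A2 (0.33 ± 0.31), ANXA3 (0.31 ± 0.26) and S100A16 (0.30 ± 0.25) were above 0, and ANXA7 (-0.24 ± 0.17) and ANXA11 (-0.17 ± 0.18) below it. The 24 partner and membrane repair genes in this table had a median TE difference of 0.09, with a range from -0.36 to 0.75.

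Over the 4278 genes with changes in both tables, the genes closest to S100A6 in the 4 log2 changes (RNA and RPF in each comparison, Euclidean distance) were ARMCX2 (0.139), PDAP1 (0.171) and NUCB1 (0.183). They were picked for likeness in these changes, which include the knockdown values that chose S100A6. That each had lower RNA in MDA-LM2 and more footprints in sgHNRNPC cells follows from this choice. The closest to ANXA5 were VDAC3 (0.0894), NECAP1 (0.11) and TNFRSF12A (0.118).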

How the data were processed

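RPF and RNA libraries of 4 lines were analysed from 2 tables, with groups and replicate numbers taken from the sample titles. The study's methods call the replicates biological duplicates. Each deposited value is a signal per transcript, a normalised count. The authors trimmed reads (cutadapt 2.3), collapsed molecular identifiers (UMI-tools), aligned them (Bowtie2 2.3.5, SAMtools; hg38 is named in the submitters' processing notes) to 1 mRNA per gene, counted RNA reads per transcript and footprints per codon, and scaled both by median-of-ratios size factors. Every RNA value was a multiple of 1 step per library (within 0.01 step), none under 5 steps. RPF values fell on no step, so their depth in reads is unknown and no counting interval is given. The study's methods describe an optional step that corrects footprint counts where ribosomes stall. Whether the RPF values used here carry that correction was not established. All columns of the tables belonged to samples of the study.

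Transcripts were matched to GENCODE version 44 (97.9% in each table) for symbols, coordinates and UTRs, since the annotation behind the mRNA set is not given in the sources used here. Genes with a mean of at least 10 in the RNA and in the RPF libraries were tested as log2 of the value plus 1 with limma 3.58.1 (R 4.3.3, moderated with a trend, statmod 1.5.0). Fold changes on this scale understate those of low genes. RNA and RPF were fitted separately, and TE was the interaction in a model of 4 groups. That model pools the spread of both kinds of library, so in the knockdown the SE of a TE difference can understate its error. Tests were two-sided, with Benjamini-Hochberg adjustment over all tested genes and a threshold of 0.05. The code was tested on simulated data. Tables were drawn up with Python 3.11.15, numpy 2.4.6, pandas 2.3.3 and matplotlib 3.10.9.

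Members and gene lists were chosen with earlier results of these data known. The rule for named genes took all members, HNRNPC, every other S100 gene or annexin past the minimum, the partner genes called in MDA-LM2 with up to 3 others, and the 3 genes closest to S100A6 and to ANXA5. A partner gene that the rule would name and a start codon sequence are not reported here. S100A3 and VPS4B were named outside the rule, after their values were seen. Alternatives were an added value of 0.5 or 5, no minimum or 50, equal totals, a replicate term, quantile normalisation, robust moderation, TE within each lysate, logistic regression, leaving out each replicate and, chosen after seeing the data, equal totals without the most abundant transcript.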

Additional observations from a re-analysis of the deposited data

How the results depend on the processing

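The calls of S100A4 in RNA and RPF and of ANXA6 in RPF held under every alternative run. Members called in RPF numbered 2 (S100A4 and ANXA6), not 4, under equal totals, quantile normalisation and equal totals without the most abundant transcript, where 12.4%, 10.9% and 12.4% of all tested genes were called. Logistic regression called 2 members in TE. Leaving out a replicate gave 1 to 8 members called in RNA (5.86% to 50.5% of all tested genes), 2 to 3 in RPF (7.64% to 10.2%) and 0 in TE, where the lone library of a line is assumed to vary like the others. The median RNA difference of the members in the knockdown was -0.10 under quantile normalisation. Leaving 15 codons at the start and 5 at the end out of the coding length moved the members' median percentile of relative TE from 60.1 to 66.3 in parental, from 61.7 to 65.4 in MDA-LM2, from 39.8 to 44.7 in sgControl and from 55.2 to 58.5 in sgHNRNPC cells. The cause of these shifts was not tested, beyond the fewer samples when a replicate is left out.

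Uncalled changes of MDA-LM2 against parental cells that turned sign were as follows. Under equal totals, TE was -0.023 for ANXA2 and -0.11 for ANXA6 and RNA was 0.072 for ANXA4, and without the most abundant transcript ANXA6 TE was -0.086 and ANXA4 RNA 0.049. Under quantile normalisation, TE was -0.075 for ANXA6 and RPF was 0.059 for ANXA1 and 0.090 for ANXA2. When a replicate was left out, TE ran from -0.51 to 0.18 for S100A10, from -0.012 to 0.20 for ANXA2, from -0.48 to 0.021 for ANXA4, from -0.20 to 0.093 for ANXA5 and from -0.021 to 0.032 for ANXA6, RNA from -0.22 to 0.27 for S100A10 and from -0.078 to 0.39 for S100A11, and RPF from -0.15 to 0.27 for S100A13.

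Replicate numbers were not treated as pairs in the main tests. Deviations of same-numbered libraries correlated at 0.234 (RNA) and 0.0443 (RPF) in the MDA-LM2 table and at -0.00377 and 0.0281 in the knockdown table. Whether the value of 0.234 reflects paired RNA samples was not tested. With the replicate number as a block, the members called were 3 in RNA (ANXA6 added) and 5 in RPF (ANXA2 added), with 21.1% and 15.5% of all tested genes called, against 15.2% and 12% without the block. Count-based tests that had been planned were not run, since whole reads could not be established for these values. RPF depth is unknown, and S100A13 and ANXA4 rested on few footprints in the knockdown table.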
